A study of Mus musculus with 17 samples.

Results

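The Krüppel-like factors are zinc-finger transcription factors, and 9 of their genes were followed here through 5 progenitor fractions of mouse bone marrow: Klf1, Klf2, Klf3, Klf4, Klf6, Klf7, Klf9, Klf10 and Klf13. A probe set was taken as a member when its only gene symbol was one of these names, which gave 31 probe sets for the 9 genes, out of 45037 probe sets and 18193 genes measured. The 9 genes are a part of the family, named with earlier results of these data known, and the rule itself uses the gene symbol and no measured value. None of them was used in the sort. Each had between 1 and 7 probe sets. A gene was counted by its brightest probe set, the one with the highest mean over the arrays, and the others are given beside it.

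All members bind GC-rich and CACCC-type DNA elements through zinc fingers at the C-terminal end, and their N-terminal parts recruit different cofactors. KLF1 is the activator that red cell precursors need for globin, heme and membrane genes, and it is often found near GATA1 on DNA. KLF3 is a repressor that recruits CtBP proteins, and its gene is a known target of KLF1 in erythroid cells. KLF9, KLF10 and KLF13 share a domain that binds the Sin3 corepressor. Among blood cells, KLF2 is known for a part in lymphocyte trafficking and KLF4 for one in monocyte differentiation.

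Cells came from adult mice aged 10 to 14 weeks, and 17 arrays were hybridized. CLP, common lymphoid progenitors, were gated as Lin-Sca1lowKitlowIL7r+Flk2+ (3 arrays). The other 4 fractions were Lin-Sca1-Kit+: MkP, megakaryocyte progenitors, were Itga2b+Slamf1+ (3 arrays), preCFUE, an early erythroid stage, were Itga2b-FcgRlowSlamf1+Enghigh (3 arrays), preMegE, precursors of megakaryocytes and red cells, were Itga2b-FcgRlowSlamf1+Englow (5 arrays), and preGM, directed to granulocytes and monocytes, were Itga2b-FcgRlowSlamf1-Englow (3 arrays). No fraction was treated or genetically altered per the labels, which name no strain. Nothing in the labels ties an array to a mouse, a pool or a day of sorting, and p-values therefore reflect variation among these arrays alone, part of which may be technical.

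Levels are given as RMA intensities without a log, and differences as log2(intensity + 16) of the first-named fraction minus the second, ± standard error. Adjusted p-values come from 1 limma fit over all 17 arrays, and a call is an adjusted p under 0.05. The arrays held sorted populations in bulk, so fewer cells with a transcript and less transcript per cell cannot be told apart. Probe sets differ in brightness for reasons of design, so intensities are compared between fractions and not between genes. Array medians ran from 15.9 to 19.1, 47.3% of all values lay under 16, and no 2 arrays held identical values. Summed levels of marker genes followed the gates, but the megakaryocyte list names Itga2b and the lymphoid list Il7r and Flt3 (Flk2). These genes were part of the gates, so those sums are no independent check. The 5 measured megakaryocyte markers summed to between 9304 and 10656 in MkP and to at most 551 in any array of the other fractions. The 6 granulocyte-monocyte markers summed to between 16673 and 17680 in preGM and between 1299 and 1368 in CLP. They summed to at most 512 on any array of MkP, preCFUE and preMegE. The 6 lymphoid markers summed to between 10747 and 17963 in CLP. The 5 measured erythroid markers, Klf1 among them, summed to between 13099 and 13493 in preCFUE and between 6991 and 10802 in preMegE. In the other fractions they summed to between 862 and 1416 in MkP, 450 and 606 in preGM, and 139 and 170 in CLP. Neutrophil markers summed to between 72.3 and 184 in CLP, 108 and 1354 in MkP, 192 and 377 in preCFUE, 87.0 and 1526 in preMegE, and 203 and 1504 in preGM, and their part in the results was not tested. The 3 measured T and NK markers summed to between 77.9 and 97.3 in preCFUE, against 440 and 594 in preMegE, and to between 356 and 499 in MkP. The 4 measured mast and basophil markers summed to between 60.7 and 87.9 in CLP, MkP and preCFUE, 183 and 249 in preMegE, and 219 and 324 in preGM. Lymphoid markers also summed to between 2356 and 3609 in preGM and to at most 159 in MkP, preCFUE and preMegE, and mature B and plasma markers to at most 224 on any array. The part of these lists in the results was not tested either. Macrophage markers summed to at most 95.8 and endothelial and stromal markers to at most 77.3 on any array. The Gapdh 3-prime over 5-prime log2 ratio, a measure of RNA shortening, ran from 2.72 to 5.12 and was highest on CLP replicate 1. With it as a covariate the calls of Klf2 were lost in the F test (adjusted p = 0.0522) and in CLP against preGM (0.0906), those of Klf7 in MkP against preGM (0.0646) and CLP against preMegE (0.0647), and that of Klf10 in MkP against preGM (0.0674). CLP replicate 2 stood apart: its mean correlation was 0.962 with the preGM arrays and 0.948 with the other CLP arrays. Differences printed for CLP calls are therefore also given without that array.

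Of the 9 genes, 7 differed among the fractions by the moderated F test: Klf1, Klf2, Klf3, Klf4, Klf7, Klf9 and Klf10. The same test called 32.3% of all genes. Counted by probe set, 15 of the 31 passed, against 23.7% of all probe sets. Klf6 (adjusted p = 0.263) and Klf13 (adjusted p = 0.249) did not pass by their brightest probe sets. The call of Klf2 was lost in 7 of the 17 fits that left out 1 array, with adjusted p from 0.0505 to 0.0541: those without preGM replicate 2, preMegE replicates 1, 3 and 4, MkP replicates 1 and 3, and preCFUE replicate 1. It was also lost with a constant of 64 (0.0676), under quantile normalization (0.0737) and with array weights (0.0579). With the mean over its probe sets Klf6 passed (adjusted p = 8.22e-05).

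The upstream sequence of Klf1 differed in composition from that of the other members. RefSeq promoter sequences (GRCm38.p6) were given for 8 of the 9 genes, Klf10 being the other. They were searched over the 250 bases before the start on both strands for CACCC, the core of the element that these factors bind, and for the GATA letters AGATAA or TGATAA or AGATAG or TGATAG. Klf1, Klf3 and Klf9 are shown because Klf1 and Klf9 were high in the same fractions and Klf3 is the known target of KLF1. Capitals mark both kinds of match, in either orientation, and no match of one overlapped a match of the other.
Klf1 (chr8:84901732-84901981, plus strand): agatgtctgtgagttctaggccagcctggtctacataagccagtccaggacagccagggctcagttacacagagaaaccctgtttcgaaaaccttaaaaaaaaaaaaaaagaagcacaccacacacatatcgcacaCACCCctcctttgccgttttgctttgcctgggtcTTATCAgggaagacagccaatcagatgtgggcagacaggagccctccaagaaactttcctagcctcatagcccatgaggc
Klf3 (chr5:64803271-64803520, plus strand): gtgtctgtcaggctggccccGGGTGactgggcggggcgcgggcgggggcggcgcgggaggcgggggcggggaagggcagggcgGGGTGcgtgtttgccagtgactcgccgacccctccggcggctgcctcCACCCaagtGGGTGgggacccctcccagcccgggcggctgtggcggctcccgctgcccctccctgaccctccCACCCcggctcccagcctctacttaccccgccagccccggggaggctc
Klf9 (chr19:23140976-23141225, plus strand): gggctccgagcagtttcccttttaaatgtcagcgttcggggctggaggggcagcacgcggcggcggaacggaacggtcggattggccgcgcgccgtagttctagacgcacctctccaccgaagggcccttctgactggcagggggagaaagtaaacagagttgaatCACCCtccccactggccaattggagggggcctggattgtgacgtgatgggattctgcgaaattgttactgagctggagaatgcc

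Klf1 held 1 GATA match, which began 80 bases before the start, and it was the only 1 of the 8 genes with such a match in this window. Over all 32851 promoters, 26.5% held these GATA letters. CACCC was found in 6 of the 8 genes, in all but Klf4 and Klf6, and in 52.0% of all promoters. Klf3 had 5 CACCC matches, Klf7 had 3, and Klf1, Klf2, Klf9 and Klf13 had 1 each. The GC content was 49.2% in Klf1 and between 59.2% and 78.4% in the other 7, with a median of 52.4% over all promoters. Klf1 held 3 CpG pairs in the window and the others between 13 and 32, against a median of 6. A match is a stretch of letters and not a measured site.

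Klf1 showed the widest span between fraction means of the 9 genes, with 60.3 times the intensity in preCFUE as in CLP (1418600_at, its only probe set). The arrays read 38.9, 49.7 and 56.4 in CLP, 316, 342 and 182 in MkP, 3065, 2678 and 3009 in preCFUE, 2129, 1819, 3200, 1840 and 1722 in preMegE, and 127, 148 and 114 in preGM. All 8 preCFUE and preMegE arrays stood above all others, and of the neighbours in the order preCFUE, preMegE, MkP, preGM, CLP only the first pair overlapped. Klf1 was higher in preMegE than in preGM by 3.85 ± 0.21 (adjusted p = 2.46e-08). It was lower in MkP than in preMegE by a difference of -2.87 ± 0.21 (adjusted p = 1.05e-06), and lower than in preCFUE by -3.35 ± 0.23 (adjusted p = 4.53e-07). The MkP level was not the lowest: it exceeded preGM by 0.98 ± 0.23 (adjusted p = 0.0231), a call lost without preGM replicate 1 or 3 or MkP replicate 1 or 2, where the adjusted p ran from 0.0650 to 0.0917, and with only MkP and preGM in the fit (0.0852). CLP lay below preGM by -1.18 ± 0.23 (adjusted p = 0.00719) with all CLP arrays and by -1.20 ± 0.27 (adjusted p = 0.00745) without CLP replicate 2. Between preCFUE and preMegE the difference of 0.48 ± 0.21 did not pass (adjusted p = 0.298). With array weights it was 0.57 and passed (adjusted p = 0.0431).

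Klf9, which codes for a GC-box binding protein induced by glucocorticoid and thyroid hormones, was highest in the same pair of fractions as Klf1. Its brightest probe set (1428289_at) read 117, 109 and 97.2 in CLP, 513, 479 and 647 in MkP, 1223, 1270 and 1056 in preCFUE, 1328, 1113, 1359, 1169 and 1217 in preMegE, and 446, 544 and 868 in preGM. The preMegE and preCFUE arrays overlapped with each other and lay above all the rest, MkP and preGM overlapped, and CLP was apart at the bottom. Klf9 rose in preMegE over preGM by 1.03 ± 0.17 (adjusted p = 0.00114) and in preCFUE over preGM by 0.97 ± 0.18 (adjusted p = 0.00344), the second of which was lost with only preCFUE and preGM in the fit (0.0867). It fell in MkP against preMegE by 1.16 ± 0.17 on the log2 scale (adjusted p = 5.76e-04). Against preCFUE it fell by 1.10 ± 0.18 (adjusted p = 0.00156), a call that quantile normalization ended (-0.70, adjusted p = 0.105). The difference of MkP from preGM did not pass (-0.13 ± 0.18, adjusted p = 0.717), and under quantile normalization the sign was the other way (0.24). The fall in CLP against preGM was 2.31 ± 0.18 (adjusted p = 2.94e-06), and without CLP replicate 2 it was -2.32 (adjusted p = 2.07e-05).

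The 7 probe sets of Klf9 fell into a bright and a dim group. The 1456341_a_at and 1428288_at probe sets followed the brightest with Pearson correlations of 0.963 and 0.974 over the 17 arrays, which share fractions and scaling. The brightest and 1456341_a_at were nearly tied in mean intensity (797.3 and 796.5). The other 4 had mean intensities from 9.58 to 12.1. The 1428288_at probe set gave the same calls in the 5 main comparisons as the brightest, with -1.24 ± 0.21 in MkP against preMegE (adjusted p = 0.00220). The 1456341_a_at probe set read 654, 699 and 805 in MkP, 871, 1697 and 1226 in preCFUE, and 1280, 1029, 1172, 965 and 1309 in preMegE. There MkP lay below every preMegE and preCFUE array, but its differences of -0.66 ± 0.24 from preMegE (adjusted p = 0.133) and -0.75 ± 0.27 from preCFUE (adjusted p = 0.101) did not pass.

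**Figure D1:**
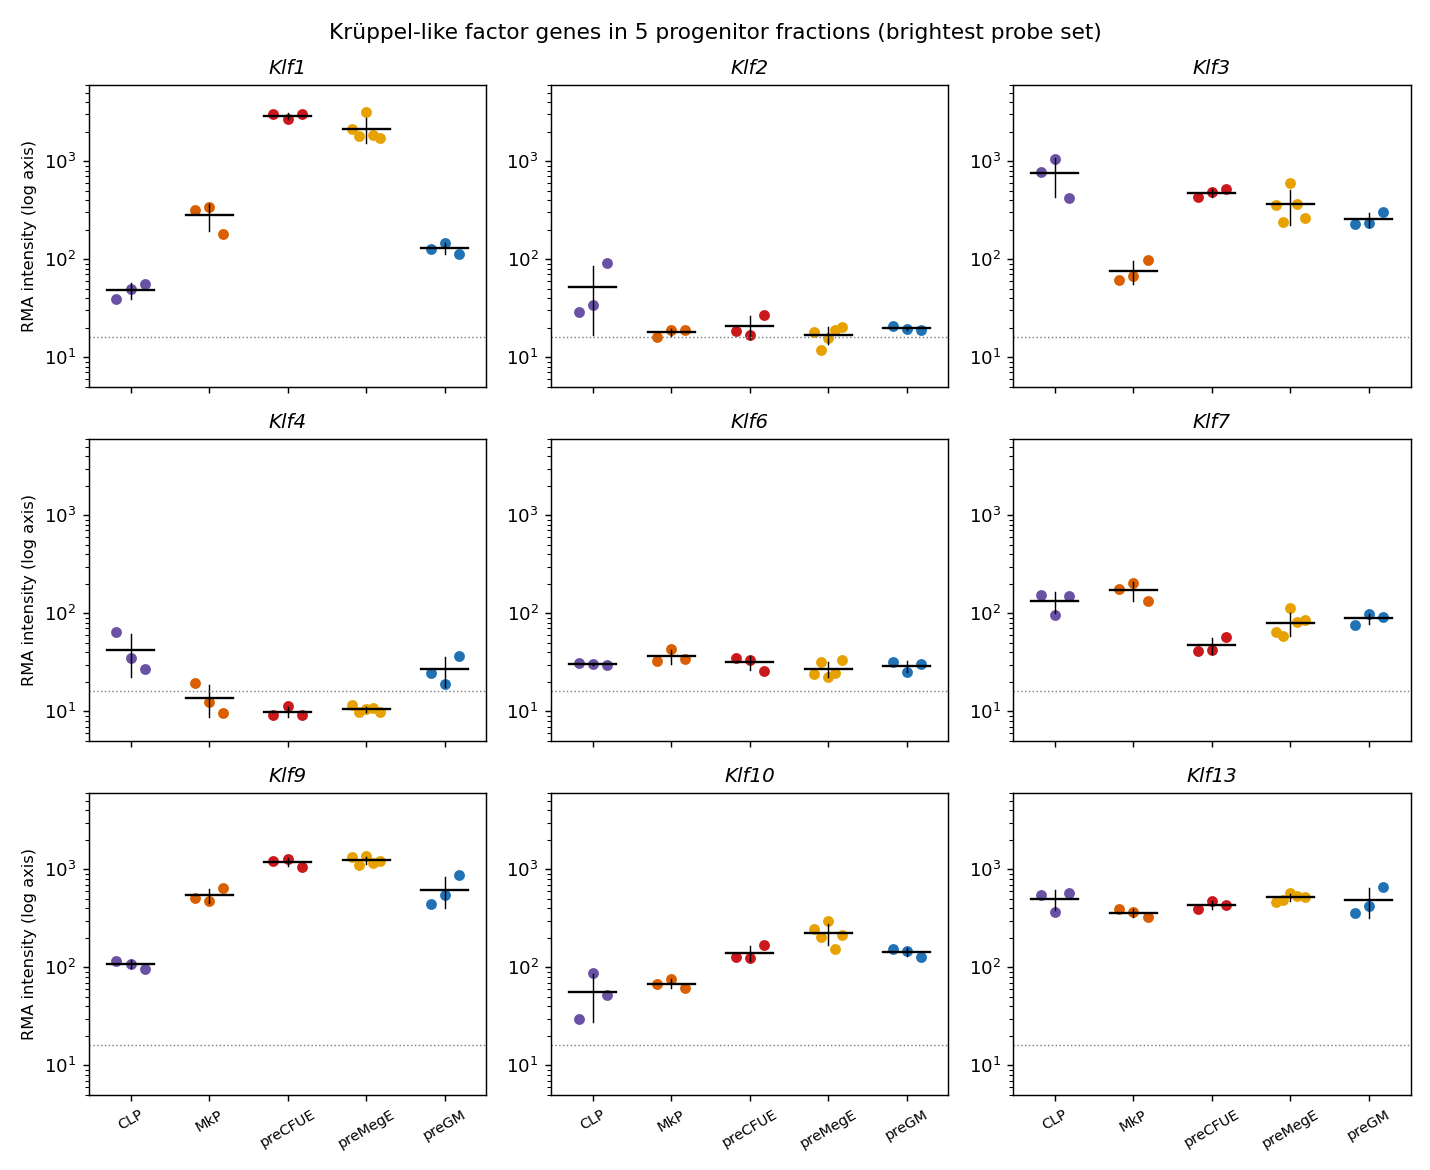
RMA intensity (log axis) of the brightest probe set of each of the 9 genes on the 17 arrays, by fraction; points are arrays, horizontal bars the mean, vertical bars ± SD, and the dotted line the added constant of 16. Klf1 and Klf9 were highest in preCFUE and preMegE, Klf3 was lowest in MkP, Klf7 was highest in MkP and CLP, and Klf6 and Klf13 were nearly level.

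Klf3, the CtBP-recruiting repressor, was lowest in MkP. Its brightest probe set (1454666_at) read 782, 1054 and 417 in CLP, 61.4, 66.8 and 98.5 in MkP, 432, 480 and 523 in preCFUE, 354, 242, 595, 364 and 266 in preMegE, and 231, 232 and 306 in preGM. No MkP array reached the lowest array of any other fraction, while CLP, preCFUE and preMegE overlapped, as did preMegE and preGM. Klf3 was lower in MkP by -2.01 ± 0.29 against preMegE (adjusted p = 6.53e-04), by -2.45 ± 0.32 against preCFUE (adjusted p = 2.11e-04) and by -1.58 ± 0.32 against preGM (adjusted p = 0.00863). Neither preCFUE against preMegE (0.44 ± 0.29, adjusted p = 0.623) nor preMegE against preGM (0.42 ± 0.29, adjusted p = 0.709) passed. In CLP against preGM Klf3 was higher by 1.41 ± 0.32 (adjusted p = 0.0158), and without CLP replicate 2, the array with the highest reading, by 1.12 ± 0.33 (adjusted p = 0.0266). That call was lost without CLP replicate 1 (adjusted p = 0.0520), preGM replicate 1 (0.0631) or preGM replicate 2 (0.0621), and with only CLP and preGM in the fit (0.144).

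Of the other 6 Klf3 probe sets, 1429360_at followed the brightest most closely (Pearson correlation 0.931). It read 41.3, 60.2 and 42.1 in MkP, against 131, 142 and 111 in preCFUE and 121, 82.6, 176, 99.7 and 105 in preMegE. MkP was again apart, with -1.03 ± 0.23 against preMegE (adjusted p = 0.0148) and -1.18 ± 0.26 against preCFUE (adjusted p = 0.00891). The 1431630_a_at probe set had no such dip: it read 78.6, 62.6 and 84.2 in MkP, 89.5, 84.9 and 79.4 in preCFUE, and 86.5, 123, 62.8, 75.6 and 111 in preMegE, with overlap among all 3. Its high fraction was CLP, with 188, 108 and 193 against 65.3, 71.8 and 80.4 in preGM, a rise of 0.98 ± 0.21 (adjusted p = 0.0119), or 1.23 ± 0.19 without CLP replicate 2 (adjusted p = 9.92e-04). The dim 1421604_a_at probe set read 16.2, 35.0 and 15.7 in CLP, 12.2, 11.2 and 7.88 in MkP, 44.2, 37.2 and 29.4 in preCFUE, 21.3, 9.82, 31.3, 21.9 and 12.8 in preMegE, and between 14.1 and 18.2 in preGM. Its MkP arrays lay below all CLP, preCFUE and preGM arrays and overlapped with preMegE. It passed the F test (adjusted p = 0.0308) and was lower in MkP than in preCFUE (10.4 ± 2.25 and 36.9 ± 7.41, adjusted p = 0.00852), while its difference of -0.39 ± 0.19 from preMegE did not pass (adjusted p = 0.264). The remaining 3 probe sets, 1441200_at, 1458487_at and 1442920_at, did not pass the F test. Of the 7 probe sets, 3 passed the F test with their lowest mean in MkP, and the mean over all 7 gave -0.55 in MkP against preMegE (adjusted p = 0.00111).

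**Figure D2:**
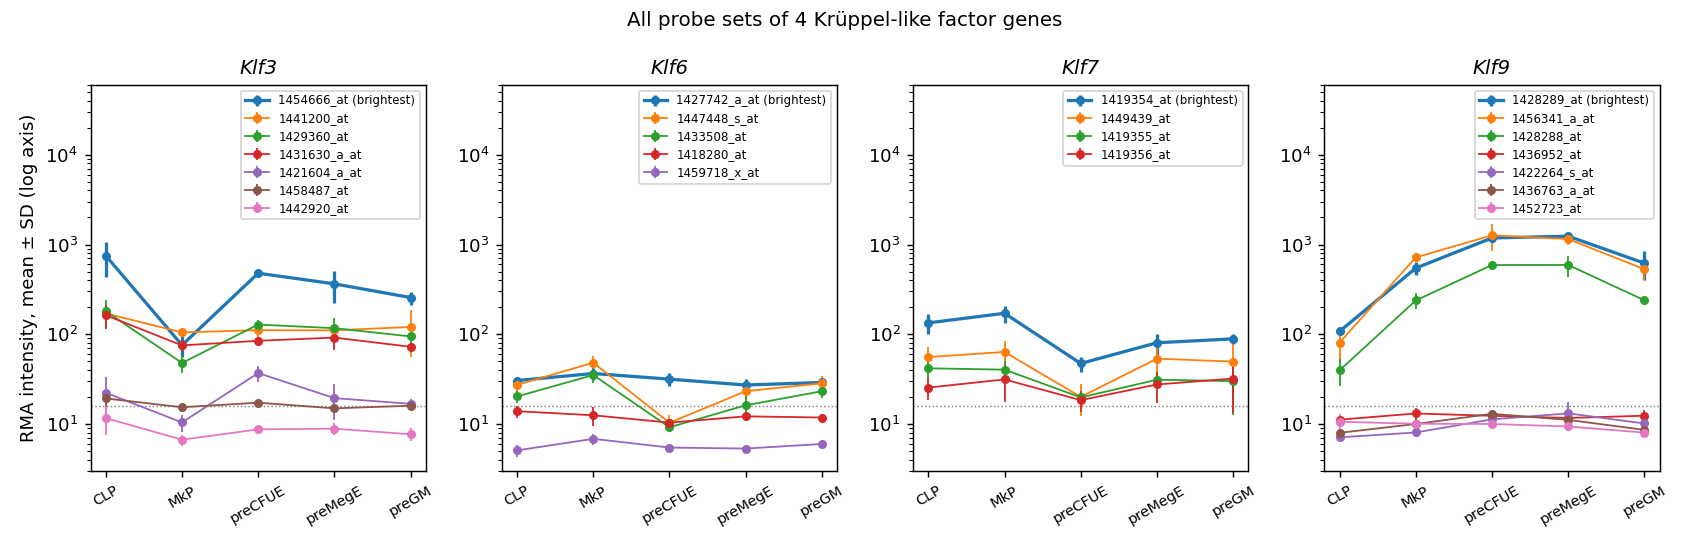
Mean RMA intensity ± SD (log axis) of every probe set of Klf3, Klf6, Klf7 and Klf9 in the 5 fractions (n = 5 arrays for preMegE and 3 for each other fraction), with the brightest drawn thicker and a dotted line at 16. For Klf6, 1447448_s_at and 1433508_at peaked in MkP and were lowest in preCFUE while the brightest was level, and for Klf3 the dip in MkP was seen on 1454666_at, 1429360_at and the dim 1421604_a_at.

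Klf10, the TGF-beta-inducible member of the Sin3-binding group, had its highest mean in preMegE and was low in MkP and CLP (1416029_at, its only probe set). It read 30.1, 87.5 and 52.2 in CLP, 67.7, 75.6 and 62.0 in MkP, 129, 125 and 167 in preCFUE, 247, 203, 295, 155 and 213 in preMegE, and 156, 148 and 129 in preGM. The MkP and CLP arrays overlapped and all lay below every array of the other 3 fractions, which overlapped among themselves. Neither preMegE against preGM (0.55 ± 0.22, adjusted p = 0.264) nor preCFUE against preMegE (-0.59, adjusted p = 0.183) passed. Klf10 was lower in MkP than in preMegE by a difference of -1.47 ± 0.22 (adjusted p = 9.02e-04). The difference of MkP from preCFUE, -0.88 ± 0.25 (adjusted p = 0.0370), was lost without preGM replicate 2, preMegE replicate 5 or any single MkP or preCFUE array (adjusted p from 0.0504 to 0.142) and under quantile normalization (0.130). CLP lay below preGM by -1.21 ± 0.25 (adjusted p = 0.00833), and by -1.51 ± 0.22 (adjusted p = 5.56e-04) without CLP replicate 2, its highest CLP array. With only CLP and preGM in the fit that call was lost (adjusted p = 0.142).

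Klf13, which also binds Sin3 and is known as a regulator of the chemokine gene Ccl5 in T cells, did not pass the F test. Its brightest probe set (1436316_at) read 546, 367 and 578 in CLP, 392, 367 and 327 in MkP, 393, 476 and 428 in preCFUE, 460, 483, 578, 541 and 524 in preMegE, and 359, 425 and 661 in preGM. The MkP arrays lay below all preCFUE and preMegE arrays, and elsewhere the fractions overlapped. None of its differences passed, and that of MkP from preMegE was -0.50 ± 0.17 (adjusted p = 0.118). It passed with the Gapdh ratio as a covariate (-0.56, adjusted p = 0.0316), with array weights (0.0367) and with MkP and preMegE alone in the fit (0.0152), and it was -0.20 under quantile normalization (0.761).

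Klf7, a member known best from neurons, had the opposite order to Klf1 in the megakaryocyte and erythroid fractions. Its brightest probe set (1419354_at) read 153, 96.8 and 152 in CLP, 177, 204 and 132 in MkP, 41.3, 42.5 and 57.9 in preCFUE, 64.3, 59.0, 113, 81.5 and 84.5 in preMegE, and 76.8, 97.7 and 91.9 in preGM. MkP lay above all preCFUE, preMegE and preGM arrays and overlapped with CLP, and preCFUE lay below every other fraction. Klf7 was higher in MkP than in preCFUE by 1.56 ± 0.21 (adjusted p = 2.68e-04) and than in preMegE by 0.96 ± 0.19 (adjusted p = 0.00680). The second call was lost with the mean over its 4 probe sets (0.38, adjusted p = 0.152). The fall in preCFUE against preMegE, -0.59 ± 0.19, did not pass (adjusted p = 0.101), but it passed with that mean (-0.56, adjusted p = 0.0402) and with array weights (-0.52, adjusted p = 0.0410). Of the other probe sets, 1449439_at was also higher in MkP than in preCFUE, by 1.14 ± 0.31 (adjusted p = 0.0326). It read 51.8, 51.8 and 87.0 in MkP, against 23.7, 11.2 and 25.2 in preCFUE. None of the probe sets beside the brightest passed the F test: the adjusted p was 0.0701 for 1449439_at, 0.109 for 1419355_at and 0.689 for 1419356_at. In CLP against preGM Klf7 did not pass (0.50 ± 0.21, adjusted p = 0.136), but it did under quantile normalization (0.91, adjusted p = 0.0258) and without CLP replicate 2, its lowest CLP array (0.69 ± 0.21, adjusted p = 0.0336).

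Klf6, an early-response member found in many tissues, was level by its brightest probe set but not by the next 2. The brightest (1427742_a_at) had means from 27.2 in preMegE to 36.5 in MkP. The 1447448_s_at probe set read 23.3, 26.3 and 32.2 in CLP, 49.2, 57.4 and 38.0 in MkP, 10.7, 12.3 and 7.98 in preCFUE, 28.0, 15.5, 31.6, 19.9 and 20.9 in preMegE, and 33.5, 29.5 and 22.3 in preGM. MkP was above and preCFUE below every other fraction. The 1433508_at probe set showed the same order at the ends, with 31.0, 42.9 and 31.5 in MkP and 10.2, 9.22 and 8.12 in preCFUE. MkP exceeded preCFUE by 1.28 ± 0.15 (adjusted p = 9.66e-05) on 1447448_s_at and by 1.01 ± 0.12 (adjusted p = 1.11e-04) on 1433508_at, and both were higher in MkP than in preMegE (0.72 ± 0.14, adjusted p = 0.00625, and 0.67 ± 0.11, adjusted p = 0.00206). These readings lay close to the constant of 16, so the log2 scale compresses them. The last 2 probe sets, 1418280_at and 1459718_x_at, had mean intensities of 12.1 and 5.69 and did not pass.

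Klf4, known as an inducer of monocyte differentiation, was read above 16 on all CLP and preGM arrays and below it on all preCFUE and preMegE arrays. Its brightest probe set (1417394_at) read 63.8, 34.9 and 27.2 in CLP, 19.3, 12.4 and 9.63 in MkP, 9.15, 11.3 and 9.26 in preCFUE, 11.5, 9.88, 10.5, 10.8 and 9.88 in preMegE, and 24.7, 19.1 and 36.7 in preGM. All CLP and preGM arrays stood above all preCFUE and preMegE arrays, MkP reached up to the lowest preGM array, and 10 of the 17 arrays were under 16. Klf4 was lower in preMegE than in preGM by a difference of -0.67 ± 0.17 (adjusted p = 0.0320). That call was lost without preGM replicate 1 or 3 or any single preMegE array (adjusted p from 0.0551 to 0.185), under quantile normalization (0.0870) and with a constant of 64 (-0.28, adjusted p = 0.107). CLP exceeded preMegE by 1.08 ± 0.17 (adjusted p = 5.85e-04) and preCFUE by 1.11 ± 0.19 (adjusted p = 7.77e-04). Without CLP replicate 2 these were 1.15 ± 0.20 (adjusted p = 0.00105) and 1.18 ± 0.22 (adjusted p = 0.00124). The difference of CLP from preGM, 0.41, did not pass (adjusted p = 0.172), but it did with array weights (0.67, adjusted p = 0.0213) and with the mean over both probe sets (0.35, adjusted p = 0.0339). The dimmer probe set 1417395_at had a mean of 14.6 and did not pass the F test (adjusted p = 0.142).

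Klf2, the factor that controls trafficking receptors of lymphocytes, was highest in CLP, where its arrays spread widely (1448890_at, its only probe set). It read 28.8, 34.4 and 91.3 in CLP, 16.2, 19.0 and 18.8 in MkP, 18.6, 16.8 and 27.1 in preCFUE, 18.1, 11.9, 15.7, 19.0 and 20.4 in preMegE, and 20.6, 19.6 and 19.0 in preGM. Every CLP array lay above every other array, and CLP replicate 3 lay far above the other CLP arrays. The rise over preGM of 0.80 ± 0.24 (adjusted p = 0.0443) was lost in 14 of the 17 fits without 1 array (adjusted p from 0.0506 to 0.117), all but those without CLP replicate 1, CLP replicate 2 or preMegE replicate 2. It was 0.41 ± 0.12 without CLP replicate 3 (adjusted p = 0.0753) and 0.96 ± 0.25 without CLP replicate 2 (adjusted p = 0.0174). It was also lost with a constant of 64 (0.42, adjusted p = 0.0670), under quantile normalization (0.0880), under median centring (0.0632) and with only CLP and preGM in the fit (0.280). Against preMegE the rise was 0.92 ± 0.21 (adjusted p = 0.00844), lost with only CLP and preMegE in the fit (0.0722). It was 1.08 ± 0.23 without CLP replicate 2 (adjusted p = 0.00480) and 0.53 ± 0.11 without CLP replicate 3 (adjusted p = 0.00730).

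The split between preMegE and preGM separates megakaryocyte and erythroid from granulocyte and monocyte potential. Klf1 and Klf9 were higher in preMegE and Klf4 was lower, so 2 of the 9 genes were called higher and 1 lower, against 2.53% and 5.32% of all genes. The other 6 did not pass. The listed KLF1 target genes, 14 of 20 with a probe set of 1 symbol, had 6 higher and 0 lower, with a median difference of 0.24 against 0.01 over all genes. The water channel gene Aqp1 had 1015 ± 240 in preMegE and 41.9 ± 15.6 in preGM, a difference of 4.16 ± 0.24 (adjusted p = 5.25e-08). The red cell adhesion gene Icam4 followed with 1.96 ± 0.21 (adjusted p = 2.40e-05), the membrane skeleton gene Ank1 with 1.18 ± 0.20 (adjusted p = 0.00192) and the globin-switching repressor gene Bcl11a with 1.11 ± 0.18 (adjusted p = 0.00139).

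The step from preMegE to MkP is the megakaryocyte branch. Klf1, Klf3, Klf9 and Klf10 were lower in MkP and Klf7 was higher: 4 of the 9 genes were called lower and 1 higher, against 5.5% and 3.56% of all genes. Klf6 did not pass by its brightest probe set (0.28, adjusted p = 0.117), but it did with the mean over its probe sets (0.36, adjusted p = 3.92e-04). Of all calls in this comparison 39.3% were higher in MkP, and under quantile normalization 57.0%. Among the 14 KLF1 target genes, 6 were lower and 1 higher (E2f2, a cell cycle factor, by 0.35 ± 0.08, adjusted p = 0.0168, named after its values were seen). Aqp1 averaged 77.0 ± 26.1 in MkP and 1015 ± 240 in preMegE, a difference of -3.48 ± 0.24 (adjusted p = 7.28e-07), and Klf3 is itself on that list. Bcl11a fell by 1.36 ± 0.18 (adjusted p = 3.46e-04), and the heme enzyme gene Alad by 1.06 ± 0.24 (adjusted p = 0.0169), a call lost without MkP replicate 1 (0.0653) or MkP replicate 3 (0.0971).

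The step from preMegE to preCFUE is the erythroid branch, and 0 of the 9 genes passed in limma, against 4.19% of all genes higher and 3.52% lower. At an unadjusted p under 0.05, 3 of the 9 passed (Klf1, Klf7 and Klf10), as did 18.7% of all genes. With array weights 2 were called (Klf1 and Klf7), and with the mean over probe sets 1 (Klf7). Fitted by probe set, Klf6 was lower in preCFUE on 1447448_s_at (-0.56 ± 0.14, adjusted p = 0.0288). A p that misses the threshold does not show that levels were equal. Of the 14 KLF1 target genes, 5 were higher in preCFUE and 0 lower, with a median of 0.11 against 0.01 over all genes. The blood group gene Rhd averaged 489 in preCFUE and 54.2 in preMegE, a difference of 2.85 ± 0.18 (adjusted p = 3.51e-07). The transferrin receptor gene Tfrc rose by 1.73 ± 0.26 (adjusted p = 0.00115), Ank1 by 1.43 ± 0.20 (adjusted p = 6.30e-04) and Alad by 0.99 ± 0.24 (adjusted p = 0.0264, lost without preMegE replicate 2 or 5 or preCFUE replicate 1 or 3, up to 0.147, and with only preCFUE and preMegE in the fit, 0.0540). The fifth gene, named after its values were seen, was E2f2 (0.31 ± 0.08, adjusted p = 0.0347). Aqp1, with 1069 in preCFUE and 1015 in preMegE, did not pass (0.07 ± 0.24, adjusted p = 0.990). The late red cell genes of the list, Hba-a1, Alas2, Slc4a1 and Epb42, had means from 8.01 to 19.1 in every fraction.

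**Figure D3:**
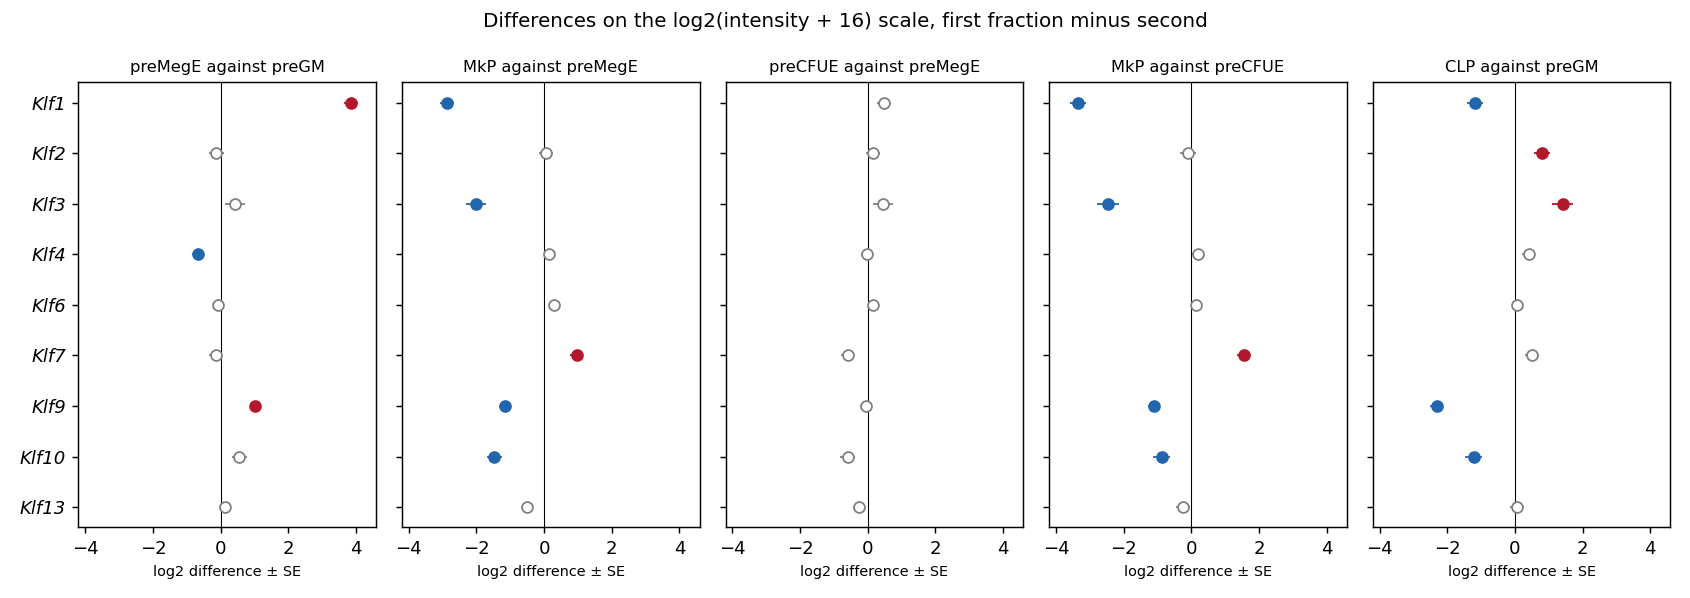
Differences of the 9 genes on the log2(intensity + 16) scale (± SE) in the 5 main comparisons, the first-named fraction minus the second; filled points passed the test (red higher, blue lower) and open grey points did not. Klf1 spans from 3.85 in preMegE against preGM to -3.35 in MkP against preCFUE, and no point is filled for preCFUE against preMegE.

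Set against each other, the branches differed in 5 of the 9 genes by their brightest probe sets. Klf6 was not among them (0.14, adjusted p = 0.514), but it was higher in MkP on 1447448_s_at and 1433508_at. With the mean over its probe sets Klf6 differed by 0.53 (adjusted p = 1.95e-05). Klf7 was higher in MkP than in preCFUE, and Klf1, Klf3, Klf9 and Klf10 were lower, so 1 gene was called higher and 4 lower, against 4.91% and 9.3% of all genes. Under quantile normalization 3 of these calls remained, without Klf9 and Klf10, and 53.0% of all calls in the comparison were then higher in MkP, against 34.6% without it. Of the 14 KLF1 target genes, 7 were lower in MkP and 0 higher, with a median of -0.65 against 0.01 over all genes. The leading ones were Rhd (-3.83 ± 0.20, adjusted p = 1.97e-08), Aqp1 (-3.55 ± 0.27, adjusted p = 1.09e-06), Klf3 and Ank1 (-2.38 ± 0.22, adjusted p = 9.00e-06).

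**Figure D4:**
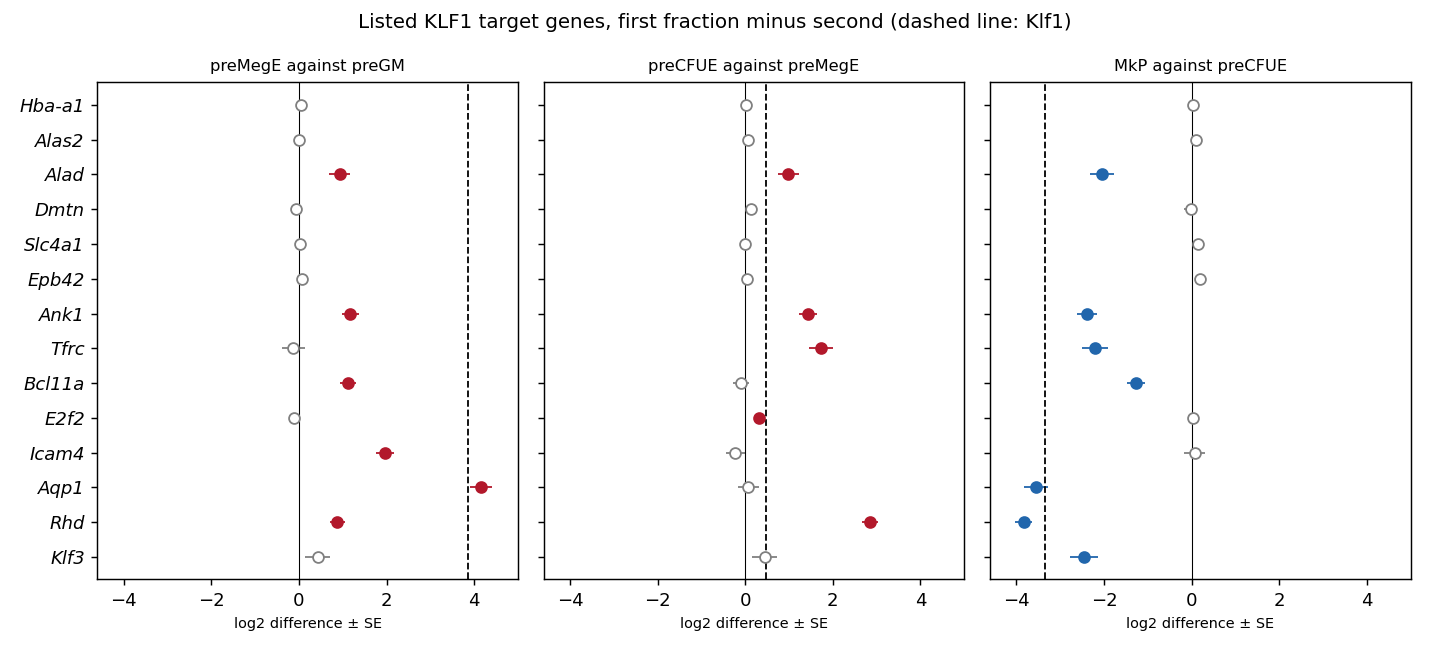
Differences (± SE, log2(intensity + 16) scale) of the 14 measured genes of the KLF1 target list in 3 comparisons, the first-named fraction minus the second; filled points passed the test, and the dashed line marks the difference of Klf1 itself. Aqp1 moved about as far as Klf1 in preMegE against preGM, while Rhd, Tfrc, Ank1, Alad and E2f2 rose in preCFUE against preMegE, where Klf1 did not pass.

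Between the lymphoid and the granulocyte-monocyte directed fractions, Klf2 and Klf3 were higher in CLP, and Klf1, Klf9 and Klf10 were lower. That is 2 of the 9 genes called higher and 3 lower, against 4.17% and 10.6% of all genes. Without CLP replicate 2, Klf7 was also called, which made 6. The count was 3 without preGM replicate 1 or 2, where Klf2 and Klf3 were lost, and 2 with only CLP and preGM in the fit. Of all calls 28.2% were higher in CLP, 43.2% under quantile normalization and 16.3% after median centring. The KLF1 target list had 4 genes higher (Klf3, Tfrc, Bcl11a and E2f2, the last 2 named after their values were seen) and 2 lower (Alad and Aqp1). Tfrc was higher in CLP (1.14 ± 0.30, adjusted p = 0.0276, lost without preGM replicate 2 or 3, up to 0.0768), and by 0.76 ± 0.25 without CLP replicate 2 (adjusted p = 0.0419). Alad was lower (-1.33 ± 0.27, adjusted p = 0.00820, and -1.47 without CLP replicate 2, adjusted p = 0.00418), as was Aqp1 (-0.97 ± 0.27, adjusted p = 0.0384), a call lost without any single CLP array, preGM replicate 1 or 2 or preMegE replicate 4 (up to 0.151), with a constant of 64 (-0.45, adjusted p = 0.197) and with the Gapdh covariate (0.120). Without CLP replicate 2 Aqp1 was -0.90 (adjusted p = 0.0545). With only CLP and preGM in the fit the calls of Tfrc (0.238), Alad (0.0716), Aqp1 (0.122) and Ccr7 (0.217) were lost. Itgb7 and Ccr7, trafficking genes linked to KLF2, moved apart: Ccr7 averaged 26.6 ± 13.4 in CLP and 10.0 ± 1.20 in preGM (0.67 ± 0.15, adjusted p = 0.0156, lost without preGM replicate 1 at 0.0596), and it was 0.43 without CLP replicate 1 and 0.71 without CLP replicate 2. Itgb7 averaged 42.2 ± 9.25 in CLP and 119 ± 4.85 in preGM (-1.23 ± 0.21, adjusted p = 0.00234, and -1.21 without CLP replicate 2).

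The 5 remaining pairs of fractions were tested to order the levels, and they share arrays with the comparisons above. Klf6 was not called by its brightest probe set in MkP against preGM or preCFUE against preGM. With the mean over its probe sets it passed in both (0.24, adjusted p = 0.0145, and -0.28, adjusted p = 0.00319). In MkP against preGM 4 of the 9 genes were called (9.66% of all genes), Klf1 and Klf7 higher and Klf3 and Klf10 lower. Quantile normalization raised the share of calls that were higher in MkP to 48.6%, against 31.8% without it. Klf7 (0.82 ± 0.21, adjusted p = 0.0321) was lost without any single preGM array or MkP replicate 1 or 2 (up to 0.128), with the mean over its 4 probe sets (0.38, adjusted p = 0.190) and with only MkP and preGM in the fit (0.0501). Klf10 (-0.92 ± 0.25, adjusted p = 0.0399) was lost in 10 of the 17 fits without 1 array, among them each without a preGM or MkP array (up to 0.133), and under quantile normalization (-0.61, adjusted p = 0.162). The count was 1 without preGM replicate 1, preGM replicate 3, MkP replicate 1 or MkP replicate 2. In preCFUE against preGM 4 were called (12.6% of all genes), Klf1 (4.33 ± 0.23, adjusted p = 1.75e-08) and Klf9 higher and Klf4 and Klf7 lower. Klf4 (-0.71 ± 0.19, adjusted p = 0.0320) was lost without preGM replicate 1 or 3 or any single preCFUE array (up to 0.145), with a constant of 64 (-0.29, adjusted p = 0.0979), under quantile normalization (0.0773) and with only preCFUE and preGM in the fit (0.0550). Klf7 (-0.73 ± 0.21, adjusted p = 0.0457) was lost in 9 of the 17 such fits, with any single preGM array or preCFUE replicate 1 or 2 left out among them (up to 0.155), with a constant of 64 (-0.46, adjusted p = 0.0902), under quantile normalization (0.145) and when its probe sets were averaged (0.0508). Klf3 did not pass (0.87, adjusted p = 0.143), but it did with array weights (0.00233), with only preCFUE and preGM in the fit (0.0164), with the filter on SD over mean (0.0338) and when its probe sets were averaged (0.32, adjusted p = 0.0456).

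CLP differed from preMegE in 7 genes (22.9% of all genes), from MkP in 5 (11.3%) and from preCFUE in 6 (27.1%), and without CLP replicate 2 in 6, 5 and 6. Klf1 and Klf9 were lower in CLP in all 3 of these comparisons, with -5.52 ± 0.23 (adjusted p = 1.27e-09) and -3.28 ± 0.18 (adjusted p = 2.03e-08) against preCFUE. Without CLP replicate 2 these were -5.54 ± 0.27 (adjusted p = 1.78e-08) and -3.28 ± 0.21 (adjusted p = 2.47e-07). Klf2 was higher in CLP than in preCFUE by 0.77 ± 0.24 (adjusted p = 0.0320), and by 0.92 ± 0.25 without CLP replicate 2 (adjusted p = 0.0167). That call was lost without CLP replicate 3 or preCFUE replicate 1 or 2 (up to 0.102). The Klf2 call against MkP was lost without any single MkP array (adjusted p from 0.0757 to 0.103). Klf3 exceeded MkP by 2.99 ± 0.32 (adjusted p = 2.50e-05), and by 2.70 ± 0.33 (adjusted p = 1.23e-04) without CLP replicate 2. Against preMegE Klf3 was higher in CLP by 0.99 ± 0.29 (adjusted p = 0.0321), and by 0.70 ± 0.30 without CLP replicate 2 (adjusted p = 0.111). The call was lost without CLP replicate 1 or 2 or preMegE replicate 1, 2, 4 or 5 (up to 0.111). It was lost too under median centring (0.0531) and with only CLP and preMegE in the fit (0.130). Klf7 was higher in CLP than in preMegE by 0.64 ± 0.19 (adjusted p = 0.0330), and by 0.83 ± 0.19 without CLP replicate 2 (adjusted p = 0.00755). This call was lost without CLP replicate 1 or 3 or preMegE replicate 1, 2 or 4 (up to 0.152), with the mean over its probe sets (0.23, adjusted p = 0.319), with array weights (0.0607), under median centring (0.0557) and with only CLP and preMegE in the fit (0.0982).

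Of 17 other Krüppel-like and Sp factor genes, 14 had a probe set of 1 symbol, and 1 of them passed the F test, which called 32.3% of all genes: Klf11, a relative of Klf10 that also binds Sin3 (adjusted p = 0.0433), named after its values were seen. By limma 0 passed in any of the 5 main comparisons, with 2 or 3 of the 14 in each at an unadjusted p under 0.05, where between 16.6% and 36.8% of all genes passed, and their medians ran from -0.03 to 0.09. In the pairs tested to order the levels, 1 was called lower in CLP against preMegE (22.9% of all genes called). In CLP against preCFUE 2 were called lower (27.1% of all genes called), and in the remaining pairs 0 passed. Klf11 averaged 44.7 ± 3.47 in MkP and 73.1 ± 24.8 in preMegE, a difference of -0.51 ± 0.18 that did not pass (adjusted p = 0.121). Of 12 cofactor and ubiquitin ligase genes of the family, 3 passed the F test (Ctbp2, Crebbp and Kat2b), no more than the share over all genes. Ctbp2, a CtBP corepressor of the kind KLF3 recruits, averaged 44.7 ± 4.32 in CLP and 125 ± 12.4 in preGM (-1.21 ± 0.24, adjusted p = 0.00746, and -1.25 without CLP replicate 2). The histone acetyltransferase gene Crebbp averaged 350 ± 35.2 in MkP and 556 ± 107 in preMegE (-0.63 ± 0.15, adjusted p = 0.0204), and it was lost without MkP replicate 2 or 3 (up to 0.0780) under quantile normalization (0.333) and when its probe sets were averaged (-0.30, adjusted p = 0.320). The acetyltransferase gene Kat2b averaged 154 ± 21.0 in preCFUE and 370 ± 132 in preMegE (-1.12 ± 0.31, adjusted p = 0.0494), a call lost in 13 of the 17 fits without 1 array (up to 0.183), with a constant of 64 (0.0586) and under median centring (0.0725). Crebbp was also lower in preCFUE than in preMegE (-0.55 ± 0.15, adjusted p = 0.0439), a call lost in 11 such fits (up to 0.163), with a constant of 1 (0.0538) or 64 (0.0532), under median centring (0.0641) and with only preCFUE and preMegE in the fit (0.0649).

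Of 4 trafficking genes linked to KLF2, 3 were measured, and both Itgb7 and the sphingosine phosphate receptor gene S1pr1 were lower in MkP than in preMegE. Itgb7 averaged 45.0 ± 5.33 in MkP and 131 ± 19.3 in preMegE (-1.26 ± 0.18, adjusted p = 7.52e-04). S1pr1 averaged 19.2 ± 5.64 in MkP and 33.1 ± 5.72 in preMegE (-0.48 ± 0.13, adjusted p = 0.0440), a call lost in 10 of the 17 fits without 1 array (up to 0.155), with a constant of 64 (0.0504), under quantile normalization (0.0501), with array weights (0.0538) and with only MkP and preMegE in the fit (0.0608). Itgb7 was lower in preCFUE than in preMegE too (-0.96 ± 0.18, adjusted p = 0.00604).

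Over the 17 arrays, which share fractions and scaling, the members' levels were also set against each other as a description. Klf1 went with Klf9 (Pearson r = 0.868 on the log2 scale) and with Klf10 (0.727), and Klf9 with Klf10 (0.774). Klf1 ran against Klf4 (-0.828) and Klf7 (-0.631), and its correlation with Klf3 was 0.06 over all 17 arrays. CLP had the highest Klf3 mean (751) and the lowest Klf1 mean (48.4), and no correlation without CLP was computed. Both genes were lower in MkP than in preMegE and preCFUE. In MkP against preGM they parted, with Klf1 higher (0.98) and Klf3 lower (-1.58). Klf3 did not pass in preMegE against preGM (0.42, adjusted p = 0.709), where Klf1 was called higher. Among 9121 other genes with a mean of at least 32, the 3 most like Klf1 were Aqp1 (0.988), the lipid transporter gene Abcb4 (0.986) and the water channel gene Aqp9 (0.985). For Klf9 they were Tfr2, a transferrin receptor (0.983), Acss2 (0.965) and Ctnna1 (0.952). Klf3 was most like Ikzf1, which codes for the lymphoid factor Ikaros (0.942), Chst15 (0.905) and Ctse (0.885). Klf7 was most like Pear1, a platelet receptor gene (0.919), Bmp2k (0.903) and Ncoa3 (0.902), and Klf10 most like Gas5 (0.943), Zfp654 (0.936) and Kit (0.933). Klf4 was most like Apobr (0.941), Il6st (0.930) and Map3k5 (0.926), and Klf2 most like Mroh2a (0.916), Pld2 (0.908) and Stambpl1 (0.888).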

How the data were processed

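The authors deposited 1 linear intensity for each of 45101 probe sets on each of 17 arrays, extracted with RMA per the design text and the submitters' processing notes. Its version is not given in the sources used here. The RNA went through a second round of in vitro transcription before hybridization, per the design text. Array groups come from the gates in the titles; the free-text description of every array names another gate and was not used, and the names CLP, MkP, preCFUE and preGM are not in the labels and were assigned from the gates by general knowledge of the study.

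From the 45037 probe sets left without 64 controls, log2(intensity + 16) was fitted in limma 3.58.1 (R 4.3.3) with 1 mean per fraction, 12 residual and 1.82 prior degrees of freedom, two-sided moderated tests and Benjamini-Hochberg adjustment over all probe sets. Genes were named through the platform annotation (34945 probe sets with 1 symbol, 932 with several, 9160 with none listed). The number of arrays limits the precision, and fold changes of dim genes are understated. Tables used Python 3.11.15 with pandas 2.3.3 and numpy 2.4.6, and plots matplotlib 3.10.9. The fit was tested on simulated data. Alternatives changed the constant, normalization, filters, probe set summary, weights, a Gapdh 3-prime over 5-prime covariate, the arrays fitted and a replicate block, or left out 1 array.

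The members and lists were chosen with earlier results of these data known. Named genes were all members, up to 4 genes per list and comparison that passed with the largest difference, and the 3 genes most like each member that passed the F test.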

Additional observations from a re-analysis of the deposited data

Results flagged for a closer look

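Among the 31 probe sets of the members, 3 had a preMegE array far from the other 4, and in all 3 it was preMegE replicate 3. Only preMegE was examined, because the rule cannot be used on the 3 arrays of each other fraction. Chance gives such an array in about 1 in 20 groups, and probe sets of 1 array are not independent. Klf1 (1418600_at) read 3200 in preMegE replicate 3, and the next highest preMegE array read 2129. Klf7 (1449439_at) read 82.4 there, with 50.4 next. Klf13 (1432543_a_at) read 230 there, with 123 next.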

How the results depend on the processing

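For single genes, 1316 of 1447 values under other settings kept their direction and their side of the threshold, as did 1964 of 2125 with 1 array left out. The cause of a change was not tested. The count of the 9 genes called in preCFUE against preMegE was 1 with the mean over probe sets and 2 with array weights, against 0. In MkP against preCFUE it was 3 under quantile normalization, against 5. With only the fractions compared in the fit, which leaves fewer arrays, it was 2 in CLP against preGM, 2 in MkP against preGM, 4 in CLP against preMegE and 3 in CLP against MkP. It was 2 in MkP against preGM with the Gapdh ratio as a covariate, and 2 in preCFUE against preGM with a constant of 64 or under quantile normalization. Leaving out 1 array gave 6 to 7 genes for the F test, 2 to 3 for preMegE against preGM, 5 to 6 for MkP against preMegE, 0 to 0 for preCFUE against preMegE, 4 to 5 for MkP against preCFUE, 3 to 6 for CLP against preGM, 1 to 5 for MkP against preGM, 2 to 4 for preCFUE against preGM, 5 to 7 for CLP against preMegE, 4 to 5 for CLP against MkP and 5 to 6 for CLP against preCFUE.

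Whether replicate numbers in the titles pair the arrays is not given in the labels, and the values do not settle it. Of 30 pairs of arrays from different fractions with the same number, 12 had deviations correlated above 0.1 (median -0.04, range -0.54 to 0.50). Of 84 such pairs with different numbers 29 did (median 0.01, range -0.55 to 0.53). With the number as a replicate block, 6 genes passed the F test, and the counts were 2 in preMegE against preGM, 4 in MkP against preMegE, 0 in preCFUE against preMegE, 4 in MkP against preCFUE, 3 in CLP against preGM, 1 in MkP against preGM, 2 in preCFUE against preGM, 5 in CLP against preMegE, 4 in CLP against MkP and 6 in CLP against preCFUE.

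The direction reversed in 41 values, none of them called in the fit reported above, and 2 passed after reversing, both of Klf6 with the mean over probe sets: 0.27 in CLP against preCFUE and -0.28 in preCFUE against preGM. With that mean the others were -0.17 for Klf6 in preCFUE against preMegE and -0.011 in CLP against preGM, 0.0021 for Klf7 and -0.018 for Klf13 in preMegE against preGM, 0.021 for Klf9 in preCFUE against preMegE and 0.059 in MkP against preGM, and -0.048 in CLP against preGM and -0.0060 in CLP against preCFUE for Klf13. Under quantile normalization they were 0.17 in MkP against preCFUE, 0.044 in MkP against preGM and 0.27 in CLP against preMegE for Klf13, 0.24 for Klf9 in MkP against preGM and 0.0082 for Klf10 in preCFUE against preGM. Under median centring CLP against preGM gave -0.038 for Klf6 and -0.024 for Klf13. The Gapdh covariate gave -0.12 for Klf13 in CLP against preGM and 0.016 for Klf10 in preCFUE against preGM. Array weights gave -0.0069 for Klf2 in MkP against preMegE, 0.051 for Klf9 in MkP against preGM, 0.055 for Klf13 in preCFUE against preGM and 0.016 for Klf6 in CLP against preCFUE. Without 1 array, Klf13 ran from -0.12 to 0.31 in CLP against preGM, -0.20 to 0.12 in CLP against preMegE, -0.29 to 0.14 in preCFUE against preGM and -0.040 to 0.39 in preMegE against preGM. Klf2 ran from -0.18 to 0.011 in MkP against preCFUE, -0.011 to 0.085 in MkP against preMegE and -0.085 to 0.11 in preCFUE against preGM. Klf6 ran from -0.12 to 0.027 in CLP against preCFUE and -0.017 to 0.093 in CLP against preGM, Klf9 from -0.34 to 0.13 in MkP against preGM and -0.12 to 0.014 in preCFUE against preMegE, and Klf10 from -0.16 to 0.029 in preCFUE against preGM. Dim readings limit Klf2, Klf4 and most Klf6 probe sets.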
